A study of Homo sapiens with 30 samples.

Results

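HT29 is a cell line from a human colorectal adenocarcinoma that grows as an epithelial sheet. The comparison described here sets HT29 cells given the ethanol extract of Banhasasim-tang at 500 µg/mL (2 libraries, replicates 2 and 3) against HT29 cells given the ethanol extract of Sayeok-tang at 500 µg/mL (3 libraries, replicates 1 to 3). The libraries were chosen by their labels and are 5 of the 30 in the series. Both groups were treated for 24 h with a 70% ethanol extract of a mixed herbal formula, and no vehicle library enters the contrast itself. The same pair of extracts at 100 µg/mL and at 20 µg/mL (2 Banhasasim and 3 Sayeok libraries at each dose) gave matched comparisons at lower dose that share no library with the main one. The cells are named Banhasasim cells and Sayeok cells below.

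Banhasasim-tang is known in Chinese medicine as Banxia Xiexin Tang and is built on Pinellia, Scutellaria, Coptis, dried ginger, ginseng, jujube and licorice. Sayeok-tang, known as Si Ni Tang, is built on aconite, dried ginger and licorice. These compositions are background, since the labels give the formula names only. The sections below turn mainly on a pair of transcription factors. The aryl hydrocarbon receptor (AhR) is a cytosolic receptor for planar aromatic compounds, among them many plant flavonoids and indoles. With a ligand bound it enters the nucleus, pairs with ARNT and switches on drug-metabolizing enzymes such as CYP1A1. ATF4 is a transcription factor whose translation increases when the initiation factor eIF2 is phosphorylated, for example by GCN2 in amino acid shortage or by PERK in endoplasmic reticulum stress. Its targets make, import and charge amino acids.

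Promoter sequences of the best-called AhR and ATF4 targets with a motif match are given first. Many of the genes that differed most between the extracts are on the target lists of these factors. Binding was not measured. Sequences are from RefSeq on GRCh38.p14, written 5′ to 3′ in the direction of transcription, and end upstream of the RefSeq start of the gene. Capitals mark the AhR core motif GCGTG, read on both strands, for CYP1A1 (chr15:74725541-74725625, minus strand), ALDH1A3 (chr15:100879594-100879830, plus strand) and TIPARP (chr3:156674342-156674492, plus strand).
CYP1A1: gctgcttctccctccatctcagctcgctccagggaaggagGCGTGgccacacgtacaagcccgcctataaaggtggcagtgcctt
ALDH1A3: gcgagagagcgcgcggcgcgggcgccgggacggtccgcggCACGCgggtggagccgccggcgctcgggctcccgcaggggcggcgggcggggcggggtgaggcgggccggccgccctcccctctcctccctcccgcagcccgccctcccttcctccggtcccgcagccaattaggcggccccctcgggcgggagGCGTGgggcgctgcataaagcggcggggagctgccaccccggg
TIPARP: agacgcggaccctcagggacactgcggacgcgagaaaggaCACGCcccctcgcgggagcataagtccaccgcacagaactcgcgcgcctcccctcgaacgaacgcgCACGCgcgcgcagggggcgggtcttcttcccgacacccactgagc
For ASNS (chr7:97872429-97872516, minus strand) and CHAC1 (chr15:40953222-40953309, plus strand), capitals mark the C/EBP-ATF response element TGATGNAA, the composite site bound by ATF4 with a C/EBP partner, again read on both strands.
ASNS: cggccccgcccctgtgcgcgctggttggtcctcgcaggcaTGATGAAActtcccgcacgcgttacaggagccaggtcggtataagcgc
CHAC1: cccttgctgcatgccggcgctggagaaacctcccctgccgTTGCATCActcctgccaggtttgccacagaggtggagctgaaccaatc
The GCGTG core was present within 250 bases upstream in 32.2% of all 35116 promoter entries, and TGATGNAA in 3.14%. TGATGNAA was found upstream of 29 of the 377 matched genes that were higher in Banhasasim cells (7.69%) and of 2.37% of the 11958 matched genes that were tested. GCGTG was found upstream of 186 of the same 377 genes (49.3%), against 50.7% of the genes tested. Among list members with a promoter entry, GCGTG was found for 5 of 7 AhR targets and TGATGNAA for 5 of 20 ATF4 targets. The motifs were searched separately, so a GCGTG and a TGATGNAA could share bases, and a match is a description of the sequence only. TIPARP had 3 promoter entries and ASNS 2, of which only the entry shown held the motif. PSAT1 and DDIT4 had no TGATGNAA in this window, and CYP1B1 had no entry. The stretches of ALDH1A3, TIPARP, ASNS and CHAC1 lie inside the gene bounds of GENCODE release 29, which reach further upstream than the RefSeq start used here.

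The 5 libraries held 36273894 to 54607773 counts, so that 3 counts corresponded to 0.0549 to 0.0827 CPM (counts per 1000000 counts of the library, here without scaling). This floor covers counting error only. CPM values of genes are on library sizes scaled by TMM, and their SDs and SEs include the spread between libraries. Colon epithelial markers were high and none of the 11 was at 0, with a summed level of 10800 to 11400 CPM in Banhasasim cells and 10600 to 11200 CPM in Sayeok cells. Of 9 fibroblast and endothelial markers, 3 to 4 were at 0 in Banhasasim libraries and 4 in Sayeok libraries, and the sum was at most 4.48 CPM in Banhasasim cells and 4.83 CPM in Sayeok cells. The leukocyte list summed to 1750 to 1850 CPM in Banhasasim cells and 1850 to 2000 CPM in Sayeok cells, nearly all of it lysozyme (LYZ), which colon cancer cells also make. Both Banhasasim libraries at 500 µg/mL stood apart from the rest of the series in mitochondrial ribosomal RNA, which took 12.9% and 9.41% of their counts, against 0.914% to 1.38% in the 26 libraries other than Banhasasim at 500 and 100 µg/mL. The median absolute log2 difference between replicates, over genes above 5 CPM, was 0.088 between the Banhasasim libraries and 0.058 to 0.07 between pairs of Sayeok libraries. Sample codes in the labels begin with 14 for Banhasasim and with 15 for Sayeok at every dose, so the code series and the extract cannot be told apart in a single-dose comparison. An offset that is equal at 500 and 20 µg/mL cancels in the difference between the doses, which was therefore tested as well.

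At 500 µg/mL, 810 of 18783 genes tested differed between the extracts (4.31%), 510 higher in Banhasasim cells (2.72%) and 300 lower (1.60%). Differences over 2-fold were found for 41 higher and 30 lower genes. Among the 15 higher genes chosen for naming by the size of the difference, CYP1A1, CYP1B1 and ALDH1A3 are AhR targets. CYP1B1-AS1 is the antisense gene of CYP1B1, and the reads of these 2 cannot be told apart. Of the others, 7 are ATF4 targets (CHAC1, ADM2, JDP2, ASNS, DDIT4, PSAT1 and PCK2), SLC6A9 and SLC1A4 are amino acid transporters, and MT-RNR1 and MT-RNR2 are the mitochondrial ribosomal RNAs. The 15 lower genes were led by mRNAs of the mitochondrial genome and by TXNIP. Without Banhasasim replicate 2 the count was 327, with 226 higher and 101 lower, and without replicate 3 it was 750, with 380 higher and 370 lower. The same code series as Banhasasim holds 1 library of another extract at this dose, Yijung-tang. It was closer to the Sayeok mean than to the Banhasasim mean for 756 of the 810 genes. The same held for 29 of the 30 named genes, the exception being NDRG1. Both sets of genes were selected because these Banhasasim and Sayeok libraries differ, and no share over all genes was taken. What the code series has to do with the 810 differences was not tested.

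**Figure D1:**
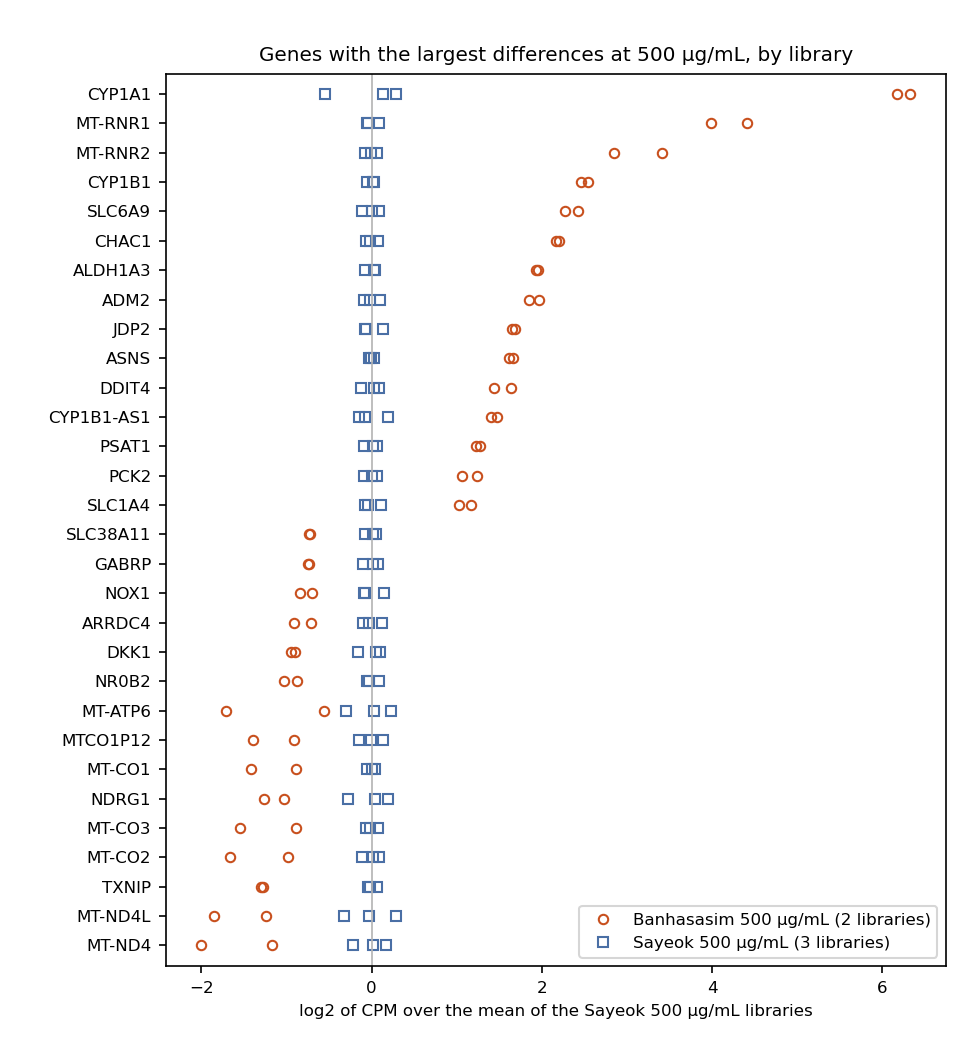
Log2 of CPM over the Sayeok mean for the 15 higher and 15 lower named genes, with 1 symbol per library (circles, Banhasasim at 500 µg/mL, 2 libraries; squares, Sayeok at 500 µg/mL, 3 libraries). The groups do not overlap for any of these genes, which the naming rule required, and the Banhasasim libraries lie furthest apart from each other among the mitochondrial genes.

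AhR targets included the largest difference among the named genes, that of CYP1A1. Of 8 AhR targets tested, 6 were higher in Banhasasim cells and none was lower, where 2.72% of all genes were called higher. The median log2 fold change was 0.82 for the list and 0.001 over all genes tested. CYP1A1, a cytochrome P450 that oxidizes polycyclic aromatic compounds, had 100.0 and 89.6 CPM in Banhasasim cells, against 1.52, 0.849 and 1.36 CPM in Sayeok cells. Every Banhasasim library was far above every Sayeok library. The log2 fold change was 6.28 ± 0.15 (SE, adjusted p = 2.42e-20), a 76.3-fold difference of the means. CYP1B1, the related P450 that hydroxylates estradiol and aromatic compounds, had 349.8 and 371.1 CPM in Banhasasim cells, against 64.7, 61.4 and 64.5 CPM in Sayeok cells (log2 2.50 ± 0.05, adjusted p = 1.27e-22). ALDH1A3, an aldehyde dehydrogenase that makes retinoic acid, had 69.7 and 70.9 CPM in Banhasasim cells, against 17.4, 18.8 and 18.6 CPM in Sayeok cells (log2 1.95 ± 0.06, adjusted p = 4.45e-18). TIPARP, an ADP-ribosyltransferase that is induced by AhR and limits its activity, had 188.5 and 204.0 CPM in Banhasasim cells, against 95.3, 100.5 and 108.5 CPM in Sayeok cells (log2 0.95 ± 0.06, adjusted p = 6.31e-12). The groups did not overlap for any of these genes, which the naming rule required of CYP1A1, CYP1B1 and ALDH1A3. No share of such genes over all genes was taken.

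The smaller AhR calls were ALDH3A1, an aldehyde dehydrogenase (62.2 ± 3.87 CPM in Banhasasim cells and 38.9 ± 0.232 CPM in Sayeok cells, SD, n = 2 and 3), and NQO1, a quinone reductase that NRF2 also controls (856 ± 31.4 and 690.1 ± 24.9 CPM in the same order). AHRR, the repressor of AhR, and UGT1A6, a glucuronosyltransferase whose exons are partly shared with other UGT1A genes, were not called, with log2 fold changes of 0.16 ± 0.11 and 0.08 ± 0.06. CYP1A2 did not pass the filter on low counts and had at most 0.196 CPM in any of the 5 libraries. The receptor itself was not called: AHR had 122.8 and 135.8 CPM in Banhasasim cells, against 131.8, 142.9 and 141.9 CPM in Sayeok cells. None of the 5 genes listed as receptor and partners was called, where 4.31% of all genes were. The list is too short to tell no call from that share. CYP1B1-AS1, which is transcribed opposite CYP1B1, averaged 7.84 ± 0.271 CPM in Banhasasim cells and 2.90 ± 0.372 CPM in Sayeok cells. Libraries were directional, but no source used here states whether counting used the strand, so reads of CYP1B1 and CYP1B1-AS1 cannot be told apart.

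The AhR targets were also those that separated the extracts at low dose. At 20 µg/mL, 4 of 18783 genes were called (0.0213%), all higher in Banhasasim cells, and they were CYP1A1, CYP1B1, ALDH1A3 and TIPARP. DESeq2 also called 4 at this dose. An unadjusted p below 0.05 was found for 398 genes, a smaller share than the 0.05 that would pass if no gene differed. Without Banhasasim 20 µg/mL replicate 2 the count was 2. CYP1B1 had 101.7 and 98.3 CPM in Banhasasim cells at 20 µg/mL, against 59.4, 55.5 and 56.8 CPM in Sayeok cells (log2 0.80 ± 0.05, adjusted p = 1.06e-10). For CYP1A1 the level at 20 µg/mL was 1.58 and 1.20 CPM in Banhasasim cells, against 0.355, 0.358 and 0.555 CPM in Sayeok cells (log2 1.72 ± 0.26, adjusted p = 0.00283). The same measure at 100 µg/mL was 15.5 and 14.5 CPM in Banhasasim cells, against 0.587, 0.607 and 0.712 CPM in Sayeok cells (log2 4.56 ± 0.17). Thus the log2 difference in CYP1A1 was 1.72 at 20, 4.56 at 100 and 6.28 at 500 µg/mL, and its increase between 20 and 500 µg/mL was itself called (4.56 ± 0.36, adjusted p = 5.01e-09). The corresponding increases were 1.70 ± 0.07 for CYP1B1, 1.34 ± 0.09 for ALDH1A3, 0.53 ± 0.08 for TIPARP and 0.53 ± 0.11 for ALDH3A1, all called.

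**Figure D2:**
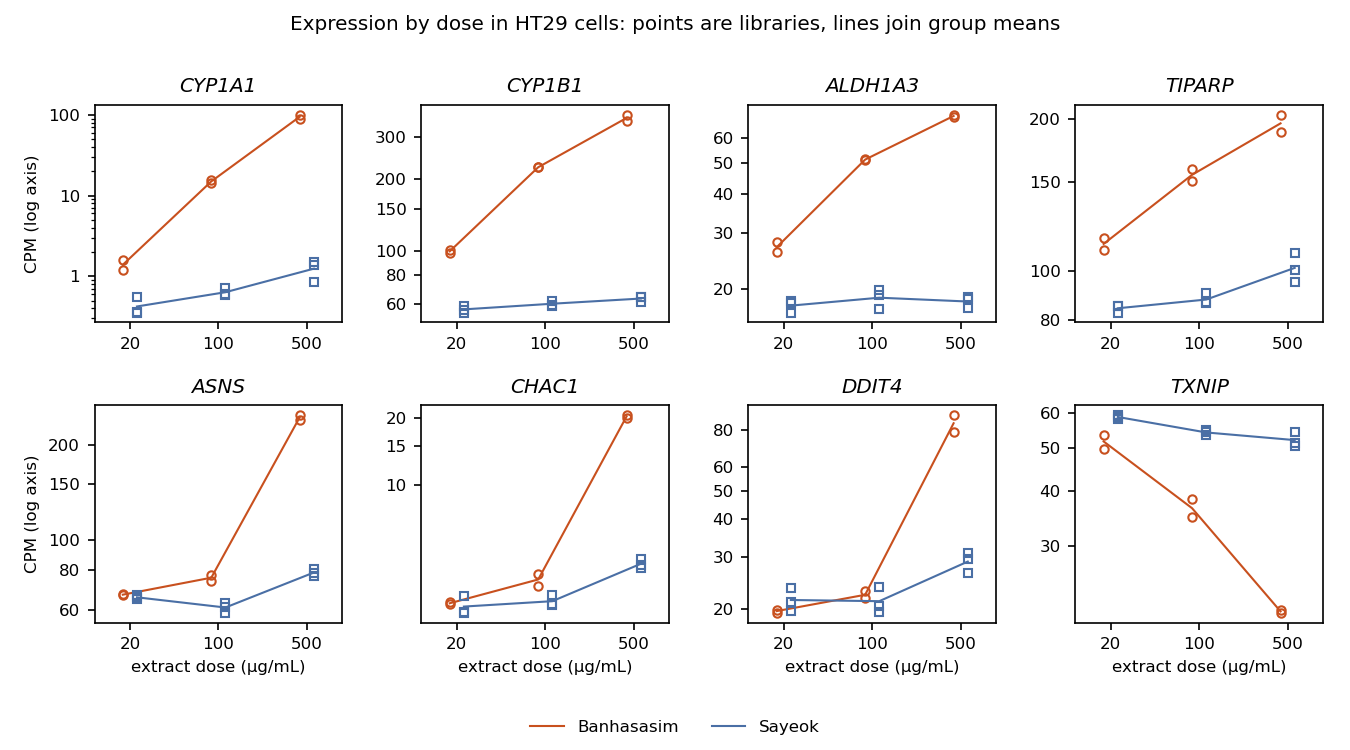
CPM (log axis) by extract dose in µg/mL for 4 AhR targets (top row) and for 3 ATF4 targets and TXNIP (bottom row), with circles for Banhasasim libraries, squares for Sayeok libraries and lines through group means. The AhR targets separate the extracts at 20 µg/mL already, whereas ASNS, CHAC1 and DDIT4 do so mainly at 500 µg/mL, where ASNS averaged 244.4 CPM in Banhasasim cells and 78.7 CPM in Sayeok cells.

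Targets of ATF4 were the list with the most calls at 500 µg/mL. Of 23 tested, 21 were higher in Banhasasim cells and none was lower, where 2.72% of all genes were called higher. The median log2 fold change of the list was 0.88. At 100 µg/mL 1 of 23 was called, which was ASNS (log2 0.31, adjusted p = 0.000507), where 0.213% of all genes were called, and at 20 µg/mL none was called. The difference between extracts at 500 µg/mL exceeded that at 20 µg/mL for 16 of the 23, where 1.04% of all genes were called in this test. When a library was left out, 16 (without Banhasasim replicate 2) to 20 were called higher, and 1 was called lower without Banhasasim replicate 3 (ALDH1L2, log2 -1.52, adjusted p = 0.0262) and 1 without Sayeok replicate 2 (ATF5, -0.36, adjusted p = 0.00743).

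ASNS, which makes asparagine from aspartate and glutamine, had 248.6 and 240.2 CPM in Banhasasim cells, against 78.5, 80.5 and 77.0 CPM in Sayeok cells. The libraries of each group lay close together and the log2 fold change was 1.64 ± 0.05 (adjusted p = 3.14e-19). The enzymes that make serine from a glycolytic intermediate were all higher in Banhasasim cells. PSAT1, the aminotransferase of that route, had 297.8 and 289.2 CPM in Banhasasim cells, against 116.3, 128.6 and 124.5 CPM in Sayeok cells (log2 1.25 ± 0.05, adjusted p = 9.00e-16). PHGDH, its first enzyme, averaged 59.8 ± 3.18 and 32.5 ± 1.15 CPM in Banhasasim and Sayeok cells (SD, n = 2 and 3), and PSPH, its last, 75.0 ± 3.99 and 47.2 ± 1.66 CPM. MTHFD2 and SHMT2, which carry serine carbon into the mitochondrial folate cycle, had log2 fold changes of 0.64 ± 0.05 and 0.40 ± 0.05. PCK2, the mitochondrial phosphoenolpyruvate carboxykinase, had 55.9 and 49.7 CPM in Banhasasim cells, against 24.9, 23.9 and 22.4 CPM in Sayeok cells. CTH, which releases cysteine from cystathionine, was higher by 0.83 ± 0.11 on the log2 scale.

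The stress regulators described next were higher as well. CHAC1, an enzyme that degrades glutathione, had 20.0 and 20.6 CPM in Banhasasim cells, against 4.26, 4.69 and 4.42 CPM in Sayeok cells (log2 2.19 ± 0.09, adjusted p = 2.31e-15). DDIT4, an inhibitor of mTORC1 signalling, had 89.6 and 78.5 CPM in Banhasasim cells, against 30.8, 26.4 and 29.4 CPM in Sayeok cells (log2 1.54 ± 0.08, adjusted p = 3.21e-13). SESN2, which signals leucine shortage to mTORC1, averaged 27.7 ± 0.549 CPM in Banhasasim cells and 13.3 ± 0.220 CPM in Sayeok cells. TRIB3, a pseudokinase that feeds back on ATF4, averaged 97.6 ± 5.99 CPM in Banhasasim cells and 50.8 ± 0.490 CPM in Sayeok cells. ADM2, a peptide hormone, and JDP2, a bZIP repressor, had log2 fold changes of 1.91 ± 0.15 and 1.67 ± 0.10. The pro-apoptotic factor DDIT3 (CHOP) differed less, with 9.32 and 8.93 CPM in Banhasasim cells, against 6.08, 5.85 and 6.14 CPM in Sayeok cells (log2 0.60 ± 0.12, adjusted p = 0.00338), and its call was lost without Banhasasim replicate 2 (0.57, adjusted p = 0.0644). The 2 members not called were on the lower side, both with overlapping groups. ATF5, a bZIP factor related to ATF4, was at log2 -0.23 ± 0.10, and ALDH1L2, a mitochondrial enzyme of folate metabolism, at -0.64 ± 0.31, with 0.317 and 0.851 CPM in Banhasasim cells, against 0.921, 0.959 and 0.833 CPM in Sayeok cells. STC2 was at 0 in all 5 libraries and FGF21 had at most 0.131 CPM, so neither was tested.

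Amino acid transporters changed with the synthetic enzymes. Of 14 tested, 9 were higher in Banhasasim cells and 1 was lower, where 2.72% of all genes were called higher and 1.60% lower. The median log2 fold change of the list was 0.34, and for 7 members the difference at 500 µg/mL exceeded that at 20 µg/mL. SLC6A9, the glycine transporter GLYT1, had 6.11 and 6.81 CPM in Banhasasim cells, against 1.18, 1.35 and 1.28 CPM in Sayeok cells (log2 2.34 ± 0.14, adjusted p = 6.51e-12). SLC1A4, which exchanges alanine, serine and cysteine, had 28.8 and 25.9 CPM in Banhasasim cells, against 13.8, 12.4 and 12.1 CPM in Sayeok cells. SLC7A5 and SLC3A2, the light and heavy chains of the LAT1 leucine transporter, were higher by 0.84 ± 0.05 and 0.65 ± 0.07 on the log2 scale. SLC7A11, the cystine importer, had 378.2 and 422.6 CPM in Banhasasim cells, against 218.0, 228.0 and 242.8 CPM in Sayeok cells (log2 0.80 ± 0.08, adjusted p = 3.83e-08). SLC7A11 was also called at 100 µg/mL (log2 0.40, adjusted p = 0.0124). The lower member was SLC36A4, a transporter of proline and tryptophan (log2 -0.33 ± 0.07). Its call was lost without Banhasasim replicate 2 (-0.30), without Sayeok replicate 2 (-0.27) and with only the compared groups in the fit.

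Cytosolic aminoacyl-tRNA synthetases, which charge tRNAs with amino acids, were higher for 12 of 20 and lower for none, where 2.72% of all genes were called higher. The median log2 fold change of the list was 0.28. The groups did not overlap for any of the members named here, but no share of such genes over all genes was taken. SARS1, for serine, had 176.1 and 169.2 CPM in Banhasasim cells, against 110.8, 108.1 and 109.2 CPM in Sayeok cells (log2 0.66 ± 0.05, adjusted p = 1.61e-09). GARS1, for glycine, CARS1, for cysteine, and AARS1, for alanine, had log2 fold changes of 0.65 ± 0.04, 0.64 ± 0.04 and 0.60 ± 0.05. At 100 and 20 µg/mL none of the 20 was called, and for 9 of them the difference at 500 µg/mL exceeded that at 20 µg/mL.

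The list of the endoplasmic reticulum unfolded protein response, which shares ATF4 through PERK, held fewer calls than the ATF4 list. Of 19 unfolded protein response genes, 3 were higher (ERN1, the sensor IRE1, HERPUD1, of protein degradation, and XBP1, its transcription factor) and none was lower. Over all genes tested 2.72% were called higher. The median log2 fold change of the list was -0.05. What PERK has to do with the ATF4 calls was not tested. ERN1 averaged 20.0 ± 0.187 CPM in Banhasasim cells and 15.4 ± 0.741 CPM in Sayeok cells. Among 17 heat shock genes the only call was the co-chaperone CHORDC1, which was lower (log2 -0.33 ± 0.06), where 4.31% of all genes were called. That list is too short to tell 1 call from this share.

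**Figure D3:**
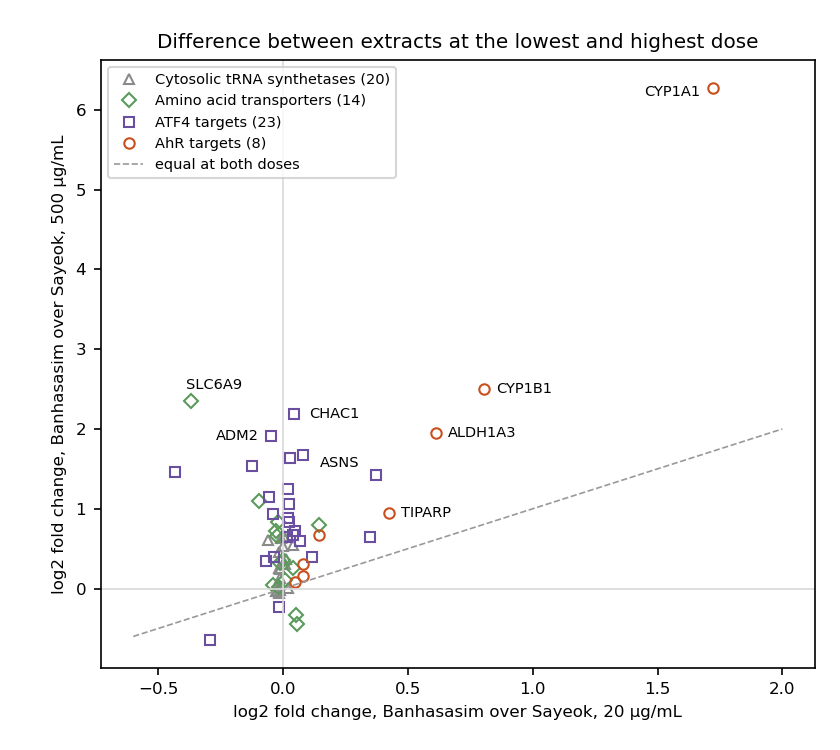
Log2 fold change of Banhasasim over Sayeok at 20 µg/mL (x axis) and at 500 µg/mL (y axis) for the members of 4 gene lists, with a dashed line of equal difference. AhR targets such as CYP1B1 (0.80 and 2.50) are away from 0 at both doses, while ATF4 targets such as CHAC1 (0.04 and 2.19) gather near 0 on the x axis.

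RNAs of the mitochondrial genome moved in opposite directions. The 2 ribosomal RNAs were higher in Banhasasim cells and 6 of 13 mRNAs were lower, with none higher, where 1.60% of all genes were called lower. Without the filter on low counts, MT-ND6 was called higher, although its Banhasasim libraries lay on both sides of the Sayeok range. MT-RNR1, the 12S RNA of the small mitochondrial ribosomal subunit, had 31800 and 23540 CPM in Banhasasim cells, against 1438, 1588 and 1442 CPM in Sayeok cells (log2 4.22 ± 0.14, adjusted p = 8.15e-15). MT-RNR2, the 16S RNA of the large subunit, had 111400 and 75310 CPM in Banhasasim cells, against 9993, 10480 and 11010 CPM in Sayeok cells (log2 3.15 ± 0.14). At 100 µg/mL MT-RNR1 had 2992 and 3150 CPM in Banhasasim cells, against 1474, 1029 and 1526 CPM in Sayeok cells (log2 1.19 ± 0.13, adjusted p = 2.22e-05). At 20 µg/mL it was not called (log2 -0.21 ± 0.13). The increase between 20 and 500 µg/mL was called for both RNAs, at 4.43 ± 0.20 for MT-RNR1 and 3.36 ± 0.20 for MT-RNR2 on the log2 scale.

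As a share of all counts, the 2 ribosomal RNAs together took 11.1% ± 2.44 in Banhasasim cells (SD, n = 2) and 1.19% ± 0.046 in Sayeok cells (SD, n = 3). The exact two-sided permutation test over these libraries gave p = 0.2, the smallest value that 2 against 3 libraries allow. The share was 1.90% and 1.91% in Banhasasim cells at 100 µg/mL and 1.17% in the Yijung library at 500 µg/mL. With the genes of the mitochondrial genome left out before scaling, 794 of the remaining genes were called.

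Among the mRNAs, MT-ND4 and MT-ND4L, which encode neighbouring overlapping subunits of complex I, had log2 fold changes of -1.53 ± 0.19 and -1.51 ± 0.20. MT-ND4 had 3892 and 2195 CPM in Banhasasim cells, against 7582, 8918 and 9850 CPM in Sayeok cells. The 3 mitochondrial subunits of cytochrome c oxidase were lower together: MT-CO1 had 8502 and 5873 CPM in Banhasasim cells, against 15160, 16170 and 15740 CPM in Sayeok cells (log2 -1.13 ± 0.14, adjusted p = 1.48e-05), and MT-CO2 and MT-CO3 were at -1.29 ± 0.23 and -1.18 ± 0.20. MT-ATP6, of the ATP synthase, was at -1.02 ± 0.27, with 4460 and 2019 CPM in Banhasasim cells, against 5345, 7712 and 6696 CPM in Sayeok cells. By ratio, the 2 Banhasasim libraries differed from each other by more than the Sayeok libraries did in these mRNAs, except in MT-ND4L. The calls for MT-ND4, MT-ND4L, MT-CO2, MT-CO3 and MT-ATP6 were lost when only the libraries of the compared groups entered the fit, and those for MT-CO2 and MT-ATP6 also without Banhasasim replicate 3 (-0.99 and -0.57). MT-ATP6 was not called without Sayeok replicate 2 or 3 either (-0.90 and -1.01). Without Banhasasim replicate 2 the median over the 13 mRNAs was -1.49, and without replicate 3 it was -0.57, against -1.02 with both.

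The remaining 7 mRNAs were not called, and they were not all shifted alike. MT-ND3 was at -1.11 ± 0.31 (adjusted p = 0.0503). MT-ND6, the mRNA encoded on the other strand of the genome, had 512.8 and 255.0 CPM in Banhasasim cells, against 259.5, 305.5 and 291.3 CPM in Sayeok cells, so the Banhasasim libraries lay on both sides of the Sayeok range. MT-ND5 was similar, with 3466 and 1776 CPM in Banhasasim cells, against 2947, 3044 and 3157 CPM in Sayeok cells. MTCO1P12, a nuclear pseudogene nearly identical to MT-CO1, was lower by the same log2 amount as MT-CO1 (-1.13 ± 0.17), and its reads cannot be assigned with certainty. None of 21 nuclear genes for mitochondrial transcription and RNA turnover was called, and none of 24 nuclear genes of oxidative phosphorylation. Over all genes tested 4.31% were called, and lists of this size are too short to tell no call from that share.

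**Figure D4:**
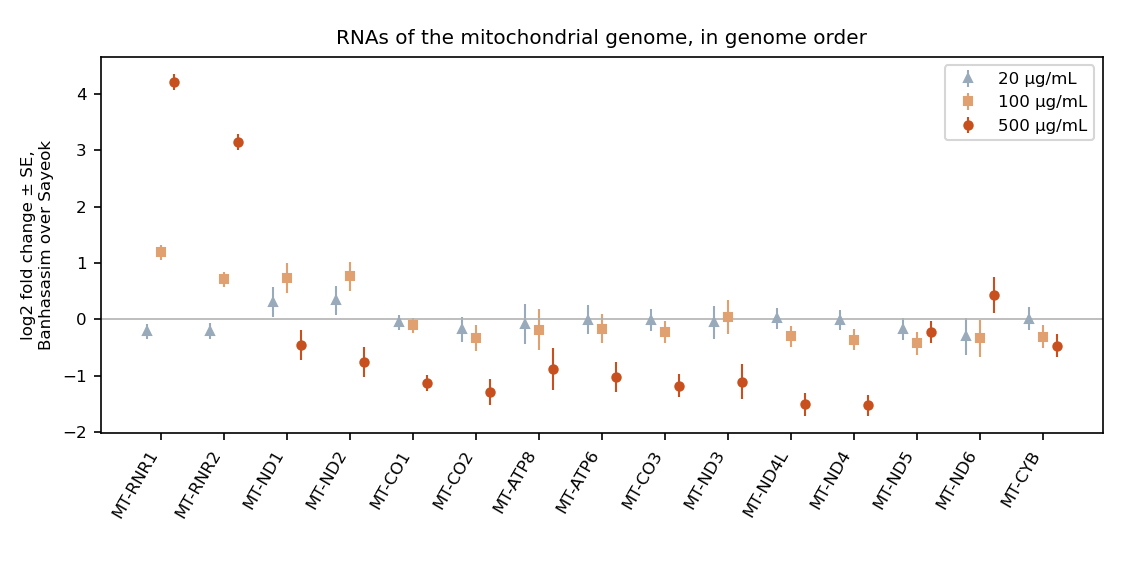
Log2 fold change of Banhasasim over Sayeok with its SE at 20, 100 and 500 µg/mL for the 15 ribosomal and messenger RNAs of the mitochondrial genome in genome order. Both ribosomal RNAs lie above 0 at 100 and 500 µg/mL, with MT-RNR1 at 4.22 at the highest dose, while MT-CO1 to MT-ND4 lie below 0 at 500 µg/mL.

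Targets of NRF2, the factor that answers oxidants and electrophiles, were higher for 8 of 26 and lower for none, where 2.72% of all genes were called higher. The median log2 fold change of the list was 0.15. Apart from SLC7A11 the differences were small. HMOX1, which degrades heme, had 18.2 and 16.1 CPM in Banhasasim cells, against 13.3, 14.0 and 13.4 CPM in Sayeok cells (log2 0.33 ± 0.07, adjusted p = 0.00274). ABCC3, a conjugate exporter, ME1, an NADPH-producing enzyme, and GCLC, of glutathione synthesis, had log2 fold changes of 0.26 ± 0.05, 0.22 ± 0.04 and 0.20 ± 0.05. Only 1 of the 26 was called without Banhasasim replicate 2. For 1 of the 26, SLC7A11, the difference at 500 µg/mL exceeded that at 20 µg/mL.

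On the list of glucose sensing, genes that respond to glucose flux through MondoA and ChREBP, 2 of 6 were lower and none was higher. Over all genes 1.60% were called lower. TXNIP, which restrains glucose uptake and binds thioredoxin, had 21.4 and 21.2 CPM in Banhasasim cells, against 51.3, 54.2 and 50.6 CPM in Sayeok cells (log2 -1.29 ± 0.06, adjusted p = 5.82e-15). It was also lower at 100 µg/mL (38.2 and 34.8 CPM in Banhasasim cells, against 53.4, 54.7 and 54.3 CPM in Sayeok cells, adjusted p = 1.98e-07), and the difference at 500 µg/mL minus that at 20 µg/mL was -1.11 ± 0.07 on the log2 scale. ARRDC4, an arrestin related to TXNIP, averaged 5.10 ± 0.497 CPM in Banhasasim cells and 8.91 ± 0.687 CPM in Sayeok cells.

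On the list of hypoxia and glycolysis, 2 of 22 were higher and 3 were lower, where 2.72% of all genes were called higher and 1.60% lower. VEGFA, the angiogenic growth factor, had 123.9 and 119.7 CPM in Banhasasim cells, against 86.2, 79.3 and 82.9 CPM in Sayeok cells (log2 0.56 ± 0.04, adjusted p = 1.97e-09). NDRG1, a hypoxia-induced differentiation gene, had 15.9 and 13.6 CPM in Banhasasim cells, against 37.1, 33.5 and 26.8 CPM in Sayeok cells (log2 -1.14 ± 0.17, adjusted p = 0.000154). The Yijung library was at 18.6 CPM for NDRG1, nearer to the Banhasasim libraries. PFKFB4, which regulates glycolysis, averaged 4.16 ± 0.0865 CPM in Banhasasim cells and 6.30 ± 0.313 CPM in Sayeok cells, and the Yijung library, at 4.26 CPM, was again nearer to Banhasasim. What the shared code series has to do with these differences was not tested.

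EGR1, EREG and other outputs of the MAPK pathway were higher for 6 of 19 and lower for none, where 2.72% of all genes were called higher. EREG and AREG encode epiregulin and amphiregulin, ligands of the EGF receptor. EREG had 184.2 and 189.8 CPM in Banhasasim cells, against 94.2, 108.3 and 105.3 CPM in Sayeok cells (log2 0.87 ± 0.06, adjusted p = 2.44e-11), and it was called at 100 µg/mL as well (log2 0.55, adjusted p = 1.04e-06). AREG had 76.2 and 70.6 CPM in Banhasasim cells, against 38.7, 44.4 and 40.9 CPM in Sayeok cells (log2 0.83 ± 0.11). EGR1, an immediate early transcription factor, averaged 42.4 ± 1.23 CPM in Banhasasim cells and 33.1 ± 0.377 CPM in Sayeok cells. The count on this list was 3 without Banhasasim replicate 2.

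Cholesterol genes differed by small amounts. Of 24 cholesterol synthesis genes, 7 were lower and none was higher, where 1.60% of all genes were called lower. The median log2 fold change of the list was -0.15. INSIG1, the feedback inhibitor of the SREBP factors, averaged 136.4 ± 4.38 CPM in Banhasasim cells and 169.5 ± 3.73 CPM in Sayeok cells. HMGCS1, an early enzyme of the route, had a log2 fold change of -0.29 ± 0.05. The count of cholesterol synthesis genes called lower fell to 3 without Banhasasim replicate 2. SCD, which desaturates fatty acids, was lower by a log2 of -0.33 ± 0.08. Of 14 PPAR targets, 3 were lower, where 1.60% of all genes were called lower. Among these targets, VNN1, a pantetheinase, had a log2 fold change of -0.38 ± 0.07, and FABP1, the liver-type fatty acid-binding protein, one of -0.80 ± 0.17. ABCA1, a cholesterol exporter controlled by LXR, was lower (log2 -0.59 ± 0.10), whereas ABCG1, another LXR target, was higher (0.33 ± 0.08). The call for ABCA1 was lost without Banhasasim replicate 2 (-0.48), and that for ABCG1 in 5 alternatives, among them without Banhasasim replicate 3 (0.25, adjusted p = 0.208), Sayeok replicate 1 (0.27, 0.106) or Sayeok replicate 2 (0.33, 0.0569).

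Of 13 enterocyte genes, 2 were lower in Banhasasim cells and none was higher, where 1.60% of all genes were called lower. SLC5A1, the sodium-glucose cotransporter SGLT1, had 12.4 and 12.6 CPM in Banhasasim cells, against 17.6, 17.1 and 17.6 CPM in Sayeok cells (log2 -0.48 ± 0.07), and the other was FABP1. NOX1, the NADPH oxidase of colon epithelium, had 8.77 and 9.69 CPM in Banhasasim cells, against 15.0, 14.8 and 17.5 CPM in Sayeok cells (log2 -0.77 ± 0.09, adjusted p = 8.20e-07). It was the only call among 6 NADPH oxidase genes, a list too short to tell 1 call from the 4.31% called over all genes. The rest of the 15 named lower genes belonged to no list. NR0B2, the bile acid-responsive repressor SHP, had 3.19 and 3.56 CPM in Banhasasim cells, against 6.92, 6.27 and 6.39 CPM in Sayeok cells (log2 -0.95 ± 0.13). DKK1, a secreted Wnt inhibitor, had 9.02 and 9.34 CPM in Banhasasim cells, against 15.6, 18.0 and 18.6 CPM in Sayeok cells (log2 -0.92 ± 0.10). GABRP, a subunit of the GABA-A receptor, and SLC38A11, of the family of sodium-coupled neutral amino acid transporters, had log2 fold changes of -0.74 ± 0.07 and -0.73 ± 0.07. Of 15 Wnt and stem cell genes, EPHB3, a receptor of crypt cells, and PROX1, a transcription factor, were lower and none was higher. Over all genes 1.60% were called lower, and no test was run over any of these lists. Since levels are shares of a bulk library, fewer cells of a state and less RNA per cell cannot be told apart.

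Other lists held few calls or none, where 4.31% of all genes tested were called. Lists of this size are too short to tell so few calls from that share. No gene was called among 18 of tight and adherens junctions, 30 cytosolic ribosomal proteins, 20 of autophagy and lysosome or 7 of metallothioneins and zinc export. Single calls were found among 23 G2/M genes (KIF20A, lower), 24 G1/S genes (RRM2, lower) and 15 NF-kB and cytokine genes (ICAM1, higher). Of 27 interferon response genes, IRF9 and OAS1 were lower. Cytosolic ribosomal proteins took 5.34% ± 0.123 of counts in Banhasasim cells and 5.37% ± 0.150 in Sayeok cells (SD, n = 2 and 3, exact permutation p = 1.0).

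**Figure D5:**
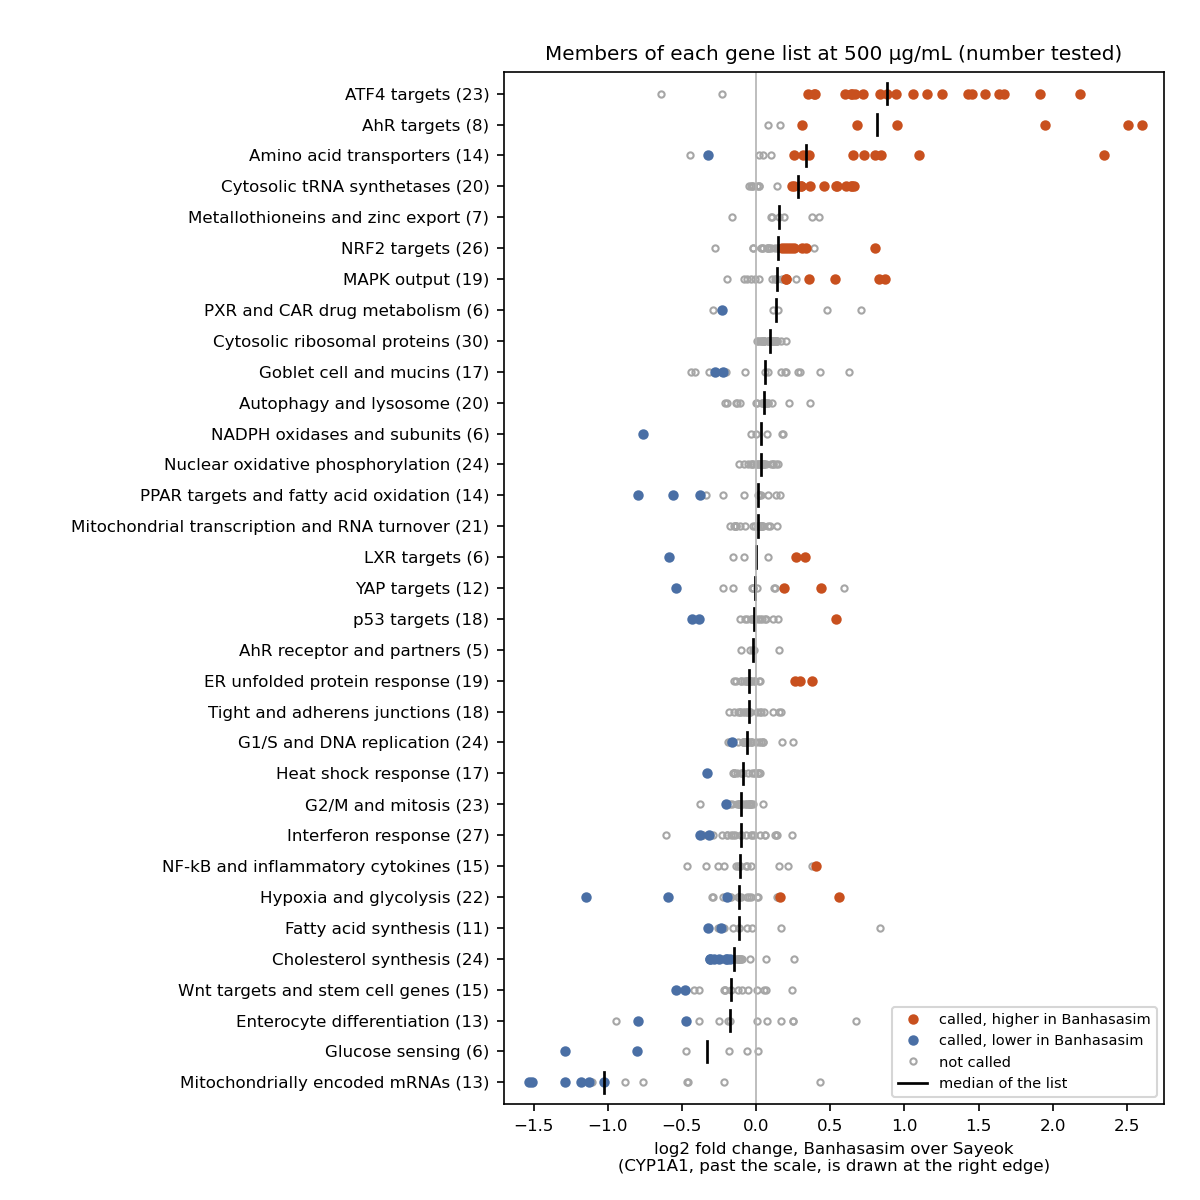
Log2 fold change of Banhasasim over Sayeok at 500 µg/mL for the tested members of each gene list, 1 circle per gene, filled where the adjusted p was below 0.05, with a bar at the list's median. ATF4 targets are filled on the right for 21 of 23 members, and mitochondrially encoded mRNAs on the left for 6 of 13.

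The lower doses gave far fewer calls. At 100 µg/mL 40 genes were called (0.213%), 35 higher (0.186%) and 5 lower (0.0266%) in Banhasasim cells, and 36 of the 40 were also called in the same direction at 500 µg/mL, which is 90% of the calls at 100 µg/mL and 4.44% of those at 500 µg/mL. The exceptions were KLF9, CABLES1, UGCG and RASSF10, of which the first 3 are named after their values were seen. The 5 lower genes at 100 µg/mL were TXNIP, RASSF10, FILIP1L, LINC00261 and PKDCC. RASSF10 was at -0.49 at 100 µg/mL (adjusted p = 0.00638) and at -0.27 at 500 µg/mL, where it was not called (adjusted p = 0.0972). FILIP1L, LINC00261 and PKDCC, at -0.47, -0.33 and -0.31 at 100 µg/mL, were at -0.58, -0.36 and -0.33 at 500 µg/mL. The 4 genes called at 20 µg/mL were all among the calls at both higher doses. In the test of the 500 µg/mL difference against the 20 µg/mL difference, 196 genes were called (1.04%), 140 toward higher (0.745%) and 56 toward lower (0.298%) in Banhasasim cells.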

How the data were processed

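RNA was measured by mRNA sequencing with 100 bp paired-end reads from a directional library kit, per the labels' protocols. The authors deposited RSEM expected counts per gene. FastQC 0.11.9, Trim Galore 0.6.5, STAR 2.7.3a, RSEM 1.3.3 and GRCh38 are named in the submitters' processing notes. No source used here gives the annotation release or the strand setting of counting. The table holds 60675 genes and 270 columns of values, of which 240 belong to samples not analysed here and were not used. Because 25.48% of the non-zero expected counts had decimals, they were rounded to whole numbers. Gene bounds came from GENCODE release 29. Symbols came from a separate list of gene names, or from that release for mitochondrial genes and where the list had none. A symbol was found for 94.03% of the gene IDs, which held 99.95% of the counts. The vehicle is 0.1% DMSO in the sample labels and 2% in the series text. The series text adds that extracts with an IC20 under 500 µg/mL were used at lower doses, and the labels give 500 µg/mL for both extracts here.

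edgeR 4.0.16 in R 4.3.3 fitted all 30 libraries as 13 groups, with TMM scaling, filterByExpr (minimum count 10), robust quasi-likelihood dispersions and 17 residual degrees of freedom. Two-sided p-values were adjusted by Benjamini-Hochberg over the 18783 genes tested in each comparison, and genes with an adjusted p under 0.05 were called. SEs were derived from the log2 fold change and the square root of the F statistic. Log2 fold changes are Banhasasim over Sayeok. Shares of counts were compared by exact permutation with scipy 1.17.1. The fit was tested on simulated data. Alternatives used DESeq2 1.42.0, its size factors, no filter, other sets of libraries, a replicate block and leaving out each replicate.

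Named genes are the 15 higher and 15 lower called genes with the largest differences, at least 5 CPM on average in either group and groups that do not overlap, plus 5 of each direction for the other comparisons, and members of 37 gene lists. Some list members are not reported here by name. The members and lists were chosen with earlier results of these data known. Labels number the replicates without saying that they came from separate cultures, so p-values measure the spread between the sequenced samples only. That spread was pooled over the 13 groups of all 30 libraries, so SEs and p-values do not rest on the 5 compared libraries alone. With only the compared groups in the fit, 556 genes were called at 500 µg/mL.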

Additional observations from a re-analysis of the deposited data

Results flagged for a closer look

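For 51 of the genes named above, the difference between Banhasasim and Sayeok cells at 500 µg/mL minus that at 20 µg/mL was called (edgeR, adjusted p under 0.05). The values that follow are these differences on the log2 scale, so a positive value means a greater excess in Banhasasim cells at 500 µg/mL.

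Among AhR targets the value was 4.56 for CYP1A1, 1.70 for CYP1B1, 1.34 for ALDH1A3, 0.53 for TIPARP and 0.53 for ALDH3A1. CYP1B1-AS1 was at 0.93. Among ATF4 targets it was 2.14 for CHAC1, 1.96 for ADM2, 1.67 for DDIT4, 1.61 for ASNS, 1.59 for JDP2, 1.23 for PSAT1, 1.21 for PCK2, 1.03 for SESN2 and 0.98 for TRIB3. PHGDH was at 0.86, CTH at 0.81, MTHFD2 at 0.63, PSPH at 0.63 and SHMT2 at 0.44.

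Among transporters, SLC6A9 was at 2.71, SLC1A4 at 1.19, SLC7A5 at 0.86, SLC3A2 at 0.68 and SLC7A11 at 0.66. The tRNA synthetases AARS1, SARS1, GARS1 and CARS1 were at 0.66, 0.65, 0.64 and 0.64. EREG was at 0.68, AREG at 0.64 and VEGFA at 0.53.

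Of the mitochondrial ribosomal RNAs, MT-RNR1 was at 4.43 and MT-RNR2 at 3.36. In the other direction, MT-ND4L was at -1.53, MT-ND4 at -1.51, MT-CO3 at -1.17, MT-CO1 at -1.08 and MTCO1P12 at -1.04. TXNIP was at -1.11, NR0B2 at -1.08, DKK1 at -0.95, GABRP at -0.79, SLC38A11 at -0.71, NOX1 at -0.66 and ABCA1 at -0.63. SLC5A1 and EPHB3 were both at -0.48, VNN1 at -0.39, HMGCS1 at -0.29 and INSIG1 at -0.28.

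The calls for ALDH3A1, AREG, HMGCS1, INSIG1, VNN1, ABCA1, MT-CO3 and MTCO1P12 in this test were each lost in more than 1 of the sets that left out a library, and those for CTH, CYP1B1-AS1 and SLC5A1 in 1 such set. With only the compared groups in the fit, MT-CO1, MT-ND4 and MT-ND4L lost the call (adjusted p = 0.141, 0.19 and 0.147), as did MT-CO3, MTCO1P12, HMGCS1 and INSIG1. With a replicate block AREG and MT-CO3 lost it (adjusted p = 0.067 and 0.0696). AREG also lost it with DESeq2 size factors and without mitochondrial genes, MT-CO3 and MTCO1P12 without the vehicle libraries, and HMGCS1 and INSIG1 without a filter.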

How the results depend on the processing

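At 500 µg/mL the count of 810 genes was 805 with DESeq2 size factors, 940 with DESeq2, 915 without the vehicle libraries, 794 without mitochondrial genes, 556 with only the compared groups and 1041 without a filter (52.9% higher, against 63.0%). It was 327 to 750 when a library was left out. Without a filter, which tests 34775 genes, 149 genes were called at 100 µg/mL, 85 at 20 µg/mL and 327 in the test between doses, against 40, 4 and 196, and the cause was not tested. With only the compared groups, 9 were called at 20 µg/mL. Leaving out a library gave 16 to 30 genes at 100 µg/mL, 2 to 4 at 20 µg/mL and 116 to 197 between doses. The lowest counts were without Banhasasim replicate 2 at 500 and 20 µg/mL, without Banhasasim replicate 3 at 100 µg/mL and, between doses, without Banhasasim 20 µg/mL replicate 3. Counts between doses also fell to 125 without Banhasasim 20 µg/mL replicate 2 and 130 without Banhasasim 500 µg/mL replicate 2, and counts at 100 µg/mL to 21 without Banhasasim replicate 2 and 24 without Sayeok replicate 2.

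The difference in the share of mitochondrial ribosomal RNA, 9.94 percentage points, was 8.22 to 11.7, that of mitochondrial mRNA, -3.79, was -4.5 to -3.07, and that of ribosomal proteins, -0.0248, was -0.112 to 0.0625. Not called with all libraries, MT-ND5 was called lower without Banhasasim replicate 2 (-0.78, adjusted p = 0.0148) and without a filter (-0.23, 0.0375) and reversed to 0.18 without replicate 3 (0.619). MT-ND6 was called higher without a filter (0.42, 6.84e-08), reversed to -0.16 without replicate 2 and was at 0.84 without replicate 3. The alternatives were followed for 91 named genes. Among them ALDH1L2, ATF5, MT-ND3, MT-ND5 and MT-ND6 were not called with all libraries and had no call to lose. In at least 1 alternative, 26 genes lost the call at 500 µg/mL. Without Banhasasim replicate 2 these were ABCA1, ABCC3, DDIT3, GCLC, HERPUD1, HMOX1, ICAM1, IRF9, KIF20A, LINC00261, ME1, NQO1, OAS1, PROX1, RRM2, SCD, SLC36A4 and XBP1, whose log2 fold changes were then -0.48 (ABCA1) to -0.17 (KIF20A) where lower and 0.19 (ME1) to 0.57 (DDIT3) where higher. Over all alternatives, GCLC and RRM2 lost the call in 6 alternatives, ABCG1 and ICAM1 in 5, IRF9 and KIF20A in 4, OAS1, SLC36A4 and XBP1 in 3, ME1 in 2 and PKDCC in 1. MT-ND3 was called without Sayeok replicate 1 (-1.24), by DESeq2 (-1.11), with its size factors and without a filter, and ATF5, lower, without Sayeok replicate 2 (-0.36) and without a filter (-0.24).

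Deviations of same-numbered replicates from their group means had correlations of 0.011 and 0.006. With 2 Banhasasim libraries these deviations are mirror images of each other. The check therefore cannot decide whether the numbers pair the samples. With a replicate block, 1009, 38, 4 and 216 genes were called at 500, 100 and 20 µg/mL and between doses. The depth of these libraries allows no statement on genes under about 3 counts, such as STC2.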
